A study of Mus musculus with 11 samples.

Results

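The 10 genes described here are the Notch receptors Notch1, Notch2 and Notch3, the ligands Dll1, Dll3, Jag1 and Jag2, the Fringe enzymes Lfng and Mfng, and Nrarp, a feedback inhibitor of the pathway. They were chosen by name, with earlier results of these data known, as 10 of the 53453 gene rows of the table. All 10 reached the level required for testing. They were measured by RNA sequencing of primary neurospheres, balls of dividing neural progenitors kept in suspension, grown from mouse embryonic brain at E15.5. Of the 11 libraries, 6 came from control embryos with no treatment and 5 from embryos with Klf5 overexpression. Klf5 is a zinc finger transcription factor. The sources used here do not give the strain, the promoter that drives Klf5 or the cells in which it acts.

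Notch signalling passes between neighbouring cells. A Delta or Jagged ligand on one cell binds a Notch receptor on the next, the receptor is cut by ADAM proteases and then by gamma-secretase, and its intracellular part joins the DNA-binding protein Rbpj to switch on repressor genes such as Hes1 and Hes5, which hold neural progenitors back from becoming neurons. Dll3 is the exception among the ligands: it does not activate receptors on neighbouring cells and is known to inhibit Notch within the cell that makes it. Fringe enzymes add a sugar to Notch and so change how strongly it answers Delta and Jagged ligands.

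All levels are in TPM (transcript abundance scaled for transcript length and for the library's total), so they can be compared between genes, and sequencing depth is unknown. The listed rows added up to 730832 to 821967 TPM in the overexpression libraries and 814208 to 846780 TPM in the controls, lowest in overexpression library 5. Klf5 itself stood at 53.6 to 93.02 TPM in the overexpression libraries and 0.371 to 1.29 TPM in the controls (limma adjusted p = 9.08e-11). The neural stem cell genes Sox2 (means of 377 TPM in controls and 360 TPM with overexpression) and Nes (342 and 382 TPM) were abundant in both groups, while Eomes, which marks cortical intermediate progenitors, did not exceed 0.0969 TPM in any library. The 10 radial glia markers summed to 4791 to 7900 TPM in controls and 3716 to 5735 TPM with overexpression. The largest part of this sum was Fabp7, which had means of 3596 TPM in controls and 2105 TPM with overexpression and did not pass (limma adjusted p = 0.0690). Slc1a3 was lower (means of 152 and 90.8 TPM) and Vim higher (1075 and 1572 TPM). Of 8 astrocyte markers, 7 could be tested, of which 2 were higher and 1 lower. These were S100b (means of 0.956 TPM in controls and 8.42 TPM with overexpression), Cd44 (13.02 and 39.8 TPM) and Aldh1l1 (62.6 and 15.8 TPM), while the 8 summed to 196 to 253 TPM in controls and 154 to 255 TPM with overexpression. The part of these cells in the results below was not tested. These are bulk libraries, so more cells that express a gene and more RNA per cell cannot be told apart.

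With Klf5 overexpression, Dll3 and Jag1 rose and Notch3 and Lfng fell, while Notch1, Notch2, Dll1, Jag2, Mfng and Nrarp did not pass the test. Each of the 4 changes was by less than 2-fold in mean TPM. A gene was called when its limma p, adjusted by the Benjamini-Hochberg method over all 13549 tested genes, was under 0.05. By this rule 4 of the 10 genes were called, beside 3.72% of all tested genes (504 genes). The 2 calls in each direction stand beside 2.29% of all tested genes called higher and 1.43% called lower. Because the 10 genes were chosen with earlier results of these data known, these shares do not test the list. All 4 calls held under each of 4 other scalings of the libraries. The median log2 fold change of the 10 genes was 0.02, beside -0.04 over all tested genes, and 6 of the 10 lay above 0. For Dll3 and Jag1 every overexpression library lay above every control library, as for 1.99% of all tested genes. For Notch3 every overexpression library lay below every control library, as for 1.31% of all tested genes.

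**Figure D1:**
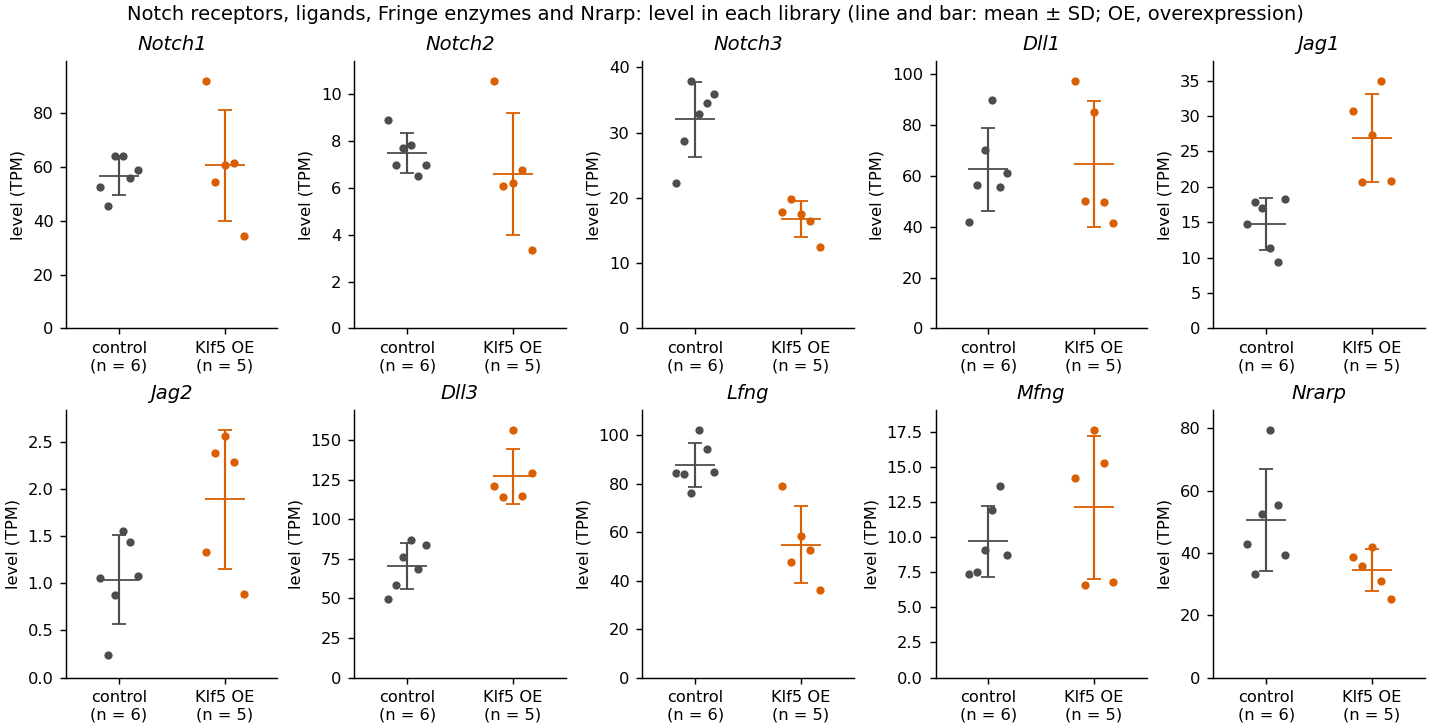
Level in TPM of each of the 10 genes (1 panel each, linear axis from 0) in 6 control libraries (grey points) and 5 Klf5 overexpression libraries (orange points), with the mean and SD of each group. The groups do not overlap for Dll3, Jag1 and Notch3, and they overlap for the other 7 genes, of which Lfng has only 1 overexpression library inside the control range.

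Among the receptors, Notch3 fell and the other receptors did not pass. Notch3 (ENSMUSG00000038146, GRCm38 chromosome 17, 32120820 to 32166852, minus strand), a receptor of progenitors in the ventricular zone and of smooth muscle and pericytes, read 22.2, 28.8, 37.9, 32.9, 34.5 and 35.96 TPM in control libraries 1 to 6. In overexpression libraries 1 to 5 it read 17.9, 19.9, 17.5, 16.4 and 12.4 TPM. All 5 values are below the lowest control, which is control library 1. The means were 32.05 ± 5.72 TPM (SD, n = 6) in controls and 16.8 ± 2.76 TPM (SD, n = 5) with overexpression. Its log2 fold change was -0.89 ± 0.16 (SE, limma adjusted p = 0.00314), and the call held in all 22 alternative fits, with adjusted p of 0.000692 to 0.0225.

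Notch1 (chromosome 2, 26457903 to 26516663, minus strand), the main receptor of neural stem cells, read 45.4 to 64.2 TPM in the controls. The overexpression libraries read 92.1, 54.6, 60.7, 61.7 and 34.3 TPM, so that library 1 was above and library 5 below every control, and the other 3 were inside the control range. The SD was 20.7 TPM (n = 5) with overexpression and 7.23 TPM (n = 6) in controls. The log2 fold change was 0.04, with a 95% confidence interval of -0.36 to 0.44 (limma adjusted p = 0.984), and it changed sign without overexpression library 1 (-0.13) and without control library 2 (-0.03). Notch2 (chromosome 3, 98013527 to 98150361, plus strand), the least abundant of the 3 receptors, also had library 1 above every control and library 5 lowest, with libraries 2 and 3 below every control too. Its overexpression libraries read 10.6, 6.08, 6.19, 6.77 and 3.33 TPM against 6.50 to 8.89 TPM in controls, with a log2 fold change of -0.22 (interval -0.67 to 0.23, adjusted p = 0.812).

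**Figure D2:**
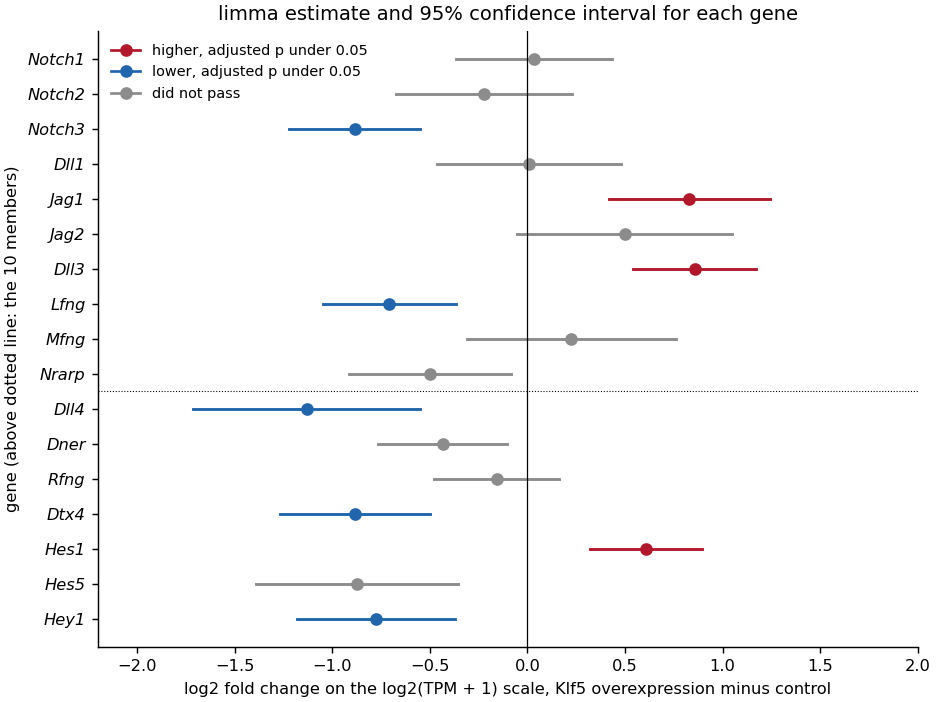
Log2 fold change on the log2(TPM + 1) scale, overexpression minus control, with its limma 95% confidence interval, for the 10 genes (above the dotted line) and 7 other pathway genes. Colours mark a limma adjusted p under 0.05: Dll3, Jag1 and Hes1 are higher (red), Notch3, Lfng, Dll4, Dtx4 and Hey1 lower (blue), and the rest did not pass (grey).

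The activating ligands did not move as a group: Jag1 rose, Dll1 stayed near 0 on the log2 scale, and Jag2 did not pass. Jag1 (ENSMUSG00000027276, chromosome 2, 137081456 to 137116644, minus strand), the Jagged ligand that is also used to maintain adult neural stem cells, read 14.7, 17.9, 16.98, 11.3, 9.38 and 18.3 TPM in control libraries 1 to 6. In overexpression libraries 1 to 5 it read 30.7, 20.7, 27.3, 34.95 and 20.8 TPM. The lowest of these, in overexpression library 2, is above the highest control, in control library 6. The means were 14.8 ± 3.70 TPM (SD, n = 6) and 26.9 ± 6.24 TPM (SD, n = 5), a ratio of 1.82, and the log2 fold change was 0.83 ± 0.19 (SE, limma adjusted p = 0.0223). The Jag1 call was lost without control library 4 (adjusted p = 0.0506) and without overexpression library 1 (0.0601), 3 (0.0529) or 4 (0.0776). Testing every gene above 0, with no minimum level, also ended it (0.0892).

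Dll1 (chromosome 17, 15367354 to 15376872, minus strand), the Delta ligand that newborn neurons and committed progenitors present to their neighbours, was the most abundant activating ligand in every library. It read 42.00, 56.2, 70.0, 89.9, 55.5 and 61.2 TPM in control libraries 1 to 6. It read 97.2, 49.9, 84.96, 49.7 and 41.4 TPM in overexpression libraries 1 to 5. The overexpression values fall into a high pair (libraries 1 and 3) and 3 lower ones, and they span the whole control range. The log2 fold change was 0.01 (interval -0.47 to 0.48, limma adjusted p = 0.998). The sign of this value turned negative in 5 of the 11 fits with 1 library left out.

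Jag2 (chromosome 12, 112907819 to 112929776, minus strand) was the lowest of the 10 genes in every library, at 0.236 to 1.55 TPM in controls and 0.886 to 2.57 TPM with overexpression. In 3 of 5 overexpression libraries it was above every control, but it did not pass (log2 fold change 0.50, interval -0.06 to 1.05, limma adjusted p = 0.484). At this level the log2(TPM + 1) scale understates differences: the ratio of means was 1.82, the same as for Jag1.

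Dll3 (ENSMUSG00000003436, chromosome 7, 28293553 to 28302238, minus strand), the inhibitory ligand, had the smallest adjusted p of the 10 genes. It read 49.5, 58.7, 75.9, 87.1, 68.6 and 83.7 TPM in control libraries 1 to 6. In overexpression libraries 1 to 5 it read 121, 114, 157, 115 and 129.5 TPM. The lowest overexpression library is well clear of the highest control, and the relative spread was smaller with overexpression (a coefficient of variation of 13.7%) than in controls (20.7%). The means were 70.6 ± 14.6 TPM (SD, n = 6) and 127 ± 17.4 TPM (SD, n = 5), a ratio of 1.80 that lay between 1.70 and 1.89 when any 1 library was left out. The log2 fold change of 0.86 ± 0.15 (SE, limma adjusted p = 0.00242) held its call in all 22 alternative fits, with adjusted p of 0.000894 to 0.0193. No other annotated gene overlaps Dll3.

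Genes of committed progenitors, in which Dll1 and Dll3 are usually switched on, did not pass beside it. The 7 proneural and intermediate progenitor markers read here summed to 176 to 268 TPM in controls and 200.3 to 311 TPM with overexpression. None of the 4 that could be tested passed, and all 4 had log2 fold changes above 0: Insm1 (0.49), Hes6 (0.17), Gadd45g (0.16) and Btg2 (0.12). Neurog1 and Neurog2 were at 0 in every control and reached at most 0.219 and 0.289 TPM with overexpression. Eomes was at 0 in every overexpression library. Oligodendrocyte lineage markers summed to 1651 to 2869 TPM in controls and 1709 to 2082 TPM with overexpression, and 1 of the 7 tested, Cspg4, was higher (45.7 and 123 TPM). The 10 neuron markers summed to 353 to 509 TPM in controls (mean 456 TPM) and 313 to 420 TPM with overexpression (mean 357 TPM). None of the 9 neuron markers that could be tested passed. The part of these cells in the Dll3 result was not tested.

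The Fringe pair moved unevenly. Lfng (ENSMUSG00000029570, chromosome 5, 140607320 to 140615545, plus strand), the Fringe enzyme of cycling progenitors and a Notch target in several tissues, read 84.3, 84.01, 76.2, 102, 94.4 and 85.00 TPM in control libraries 1 to 6. In overexpression libraries 1 to 5 it read 79.1, 47.9, 58.4, 52.5 and 35.9 TPM. Library 1 is inside the control range, just above control library 3, and the other 4 are below every control. The means were 87.7 ± 9.16 TPM (SD, n = 6) and 54.8 ± 15.9 TPM (SD, n = 5). The fitted log2 fold change was -0.71 ± 0.16 (SE, limma adjusted p = 0.0188). The call was lost without overexpression library 2 (adjusted p = 0.0543) and without a filter on low values (0.0804).

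Mfng (chromosome 15, 78755882 to 78773475, minus strand), a second Fringe that is found more in committed cells, did not pass. It read 7.38, 7.53, 9.11, 11.9, 13.6 and 8.70 TPM in control libraries 1 to 6 and 14.3, 6.60, 17.7, 15.3 and 6.83 TPM in overexpression libraries 1 to 5. Overexpression libraries 1, 3 and 4 were above every control and libraries 2 and 5 below every control, so the mean hides a split group (log2 fold change 0.22, interval -0.31 to 0.76, limma adjusted p = 0.853). Rfng, the remaining Fringe gene and not one of the 10, had means of 22.01 and 19.7 TPM (adjusted p = 0.812).

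Nrarp (chromosome 2, 25180758 to 25183339, plus strand), a short ankyrin-repeat protein that Notch induces and that dampens Notch in turn, read 42.9, 33.4, 52.4, 79.5, 55.5 and 39.2 TPM in control libraries 1 to 6. It read 38.9, 35.7, 41.9, 31.1 and 25.1 TPM in overexpression libraries 1 to 5. All 5 overexpression values are below the control mean of 50.5 TPM, but 3 of them are inside the control range, and control library 4 is far above the other controls. The log2 fold change of -0.50 (interval -0.91 to -0.09) had a limma adjusted p of 0.248 and did not pass in any of the 22 alternative fits. Each of the 10 genes was also compared on its own by a two-sided exact permutation test, not adjusted for the number of genes. The exact permutation p was 0.00216 for Dll3 and Jag1, the smallest that the 462 possible group labellings allow, 0.00433 for Notch3 and Lfng, and 0.0498 for Nrarp. It was 0.0649 for Jag2, 0.366 for Notch2, 0.437 for Mfng, 0.868 for Notch1 and 0.989 for Dll1.

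The balance between these genes was taken within each library, where any scaling of a whole library cancels. These balances are given without a test, since the genes were chosen with earlier results known. Activating ligands here are Dll1, Jag1 and Jag2. Dll4, a Delta ligand outside the 10 genes, was left out, although it was called lower (means of 3.86 and 1.14 TPM). The 3 receptors summed to 81.1 to 109.8 TPM in controls and 50.1 to 121 TPM with overexpression, and the 3 activating ligands to 57.8 to 103 TPM and 63.1 to 129 TPM. Both sums overlapped between groups and varied most within the overexpression group, from library 1 at the top to library 5 at the bottom. Activating ligands over receptors came to 0.691, 0.916, 0.800, 0.982, 0.683 and 0.792 in control libraries 1 to 6. In overexpression libraries 1 to 5 the ratio was 1.07, 0.905, 1.36, 1.02 and 1.26. Every overexpression library except library 2 was above the highest control.

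**Figure D3:**
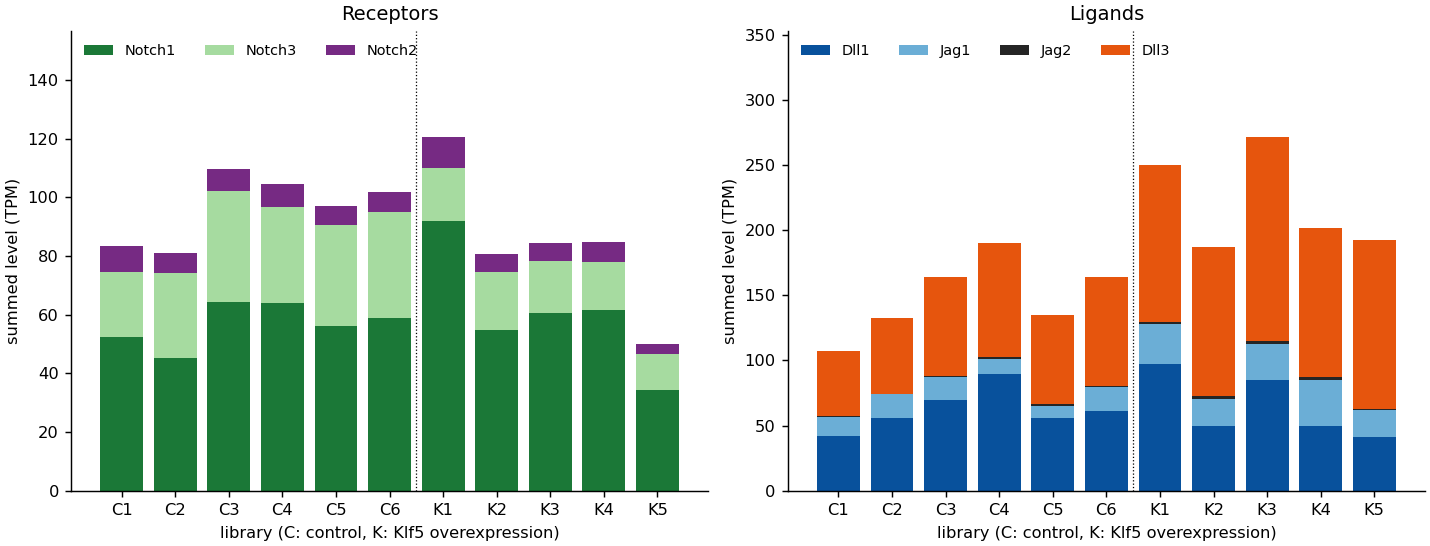
Summed level in TPM (linear axis from 0) of the 3 receptors (left) and the 4 ligands (right) in each control library (C1 to C6) and each overexpression library (K1 to K5), with 1 colour per gene. The Notch3 segment is shorter and the Dll3 segment taller in K1 to K5, while the Notch1 and Dll1 segments range widely, with the highest values in K1 and the lowest in K5.

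Dll3 over the 3 activating ligands together was 0.858, 0.790, 0.865, 0.848, 1.03 and 1.04 in control libraries 1 to 6, close to equal amounts. In overexpression libraries 1 to 5 it was 0.935, 1.57, 1.36, 1.32 and 2.05. Library 1, in which Dll1 was also at its highest, stayed inside the control range, and the other 4 were above it. Against Dll1 alone the ratio of Dll3 was 0.969 to 1.37 in controls and 1.24, 2.29, 1.84, 2.31 and 3.13 in overexpression libraries 1 to 5. As a share of the TPM of all 4 ligands, Dll3 took 47.4% ± 2.82 (SD, n = 6) in controls and 58.2% ± 6.88 (SD, n = 5) with overexpression. When ligands and receptors were combined by geometric mean, which gives the scarce Jag2 the same weight as Dll1, the log2 difference between groups fell from 0.64 to 0.25 for Dll3 over activating ligands and rose from 0.47 to 1.00 for activating ligands over receptors. The geometric means also leave out Dll4, which was more abundant than Jag2 in controls (means of 3.86 and 1.04 TPM), so they hold only for the 3 ligands used.

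Set against the receptors, Dll3 did not overlap between groups. Its ratio to the summed receptors was 0.592, 0.724, 0.691, 0.833, 0.706 and 0.822 in control libraries 1 to 6 and 1.00, 1.42, 1.85, 1.35 and 2.58 in overexpression libraries 1 to 5. In TPM, even the lowest overexpression library thus had as much Dll3 as the 3 receptors together, which no control reached. Dll3 was called higher and Notch3, among the receptors, lower, so a difference between groups was built into this ratio.

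The make-up of the receptor pool differed more clearly than its size. Notch3 was itself called lower, so a difference between groups was built into its share. Notch3 made up 26.6, 35.5, 34.5, 31.4, 35.5 and 35.3% of receptor TPM in control libraries 1 to 6. It made up 14.8, 24.7, 20.7, 19.3 and 24.8% in overexpression libraries 1 to 5, each below every control. The Notch1 share took up the difference, at 59.0% ± 2.50 (SD, n = 6) in controls and 71.5% ± 3.47 (SD, n = 5) with overexpression, again without overlap. Shares of a single total move against each other, and Notch1 itself did not pass, so its share is no separate result. The Notch2 share was 7.87% ± 1.52 (SD, n = 6) and 7.65% ± 0.782 (SD, n = 5). Overexpression libraries 1 and 5 lay at opposite ends for total receptor TPM, yet both had a Notch3 share below all controls.

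Among the activating ligands, the Jag1 share was 11.01 to 25.5% in controls and 23.7 to 40.2% with overexpression, and these ranges overlapped. In the Fringe pair, Lfng exceeded Mfng in every library, by 6.91 to 11.4 times in controls and by 5.55, 7.26, 3.31, 3.43 and 5.26 times in overexpression libraries 1 to 5. Only overexpression library 2 reached the control range. Nrarp per Notch1 was 0.665 to 1.24 in controls and 0.422 to 0.732 with overexpression, so that all 5 overexpression libraries were below 5 of the 6 controls.

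**Figure D4:**
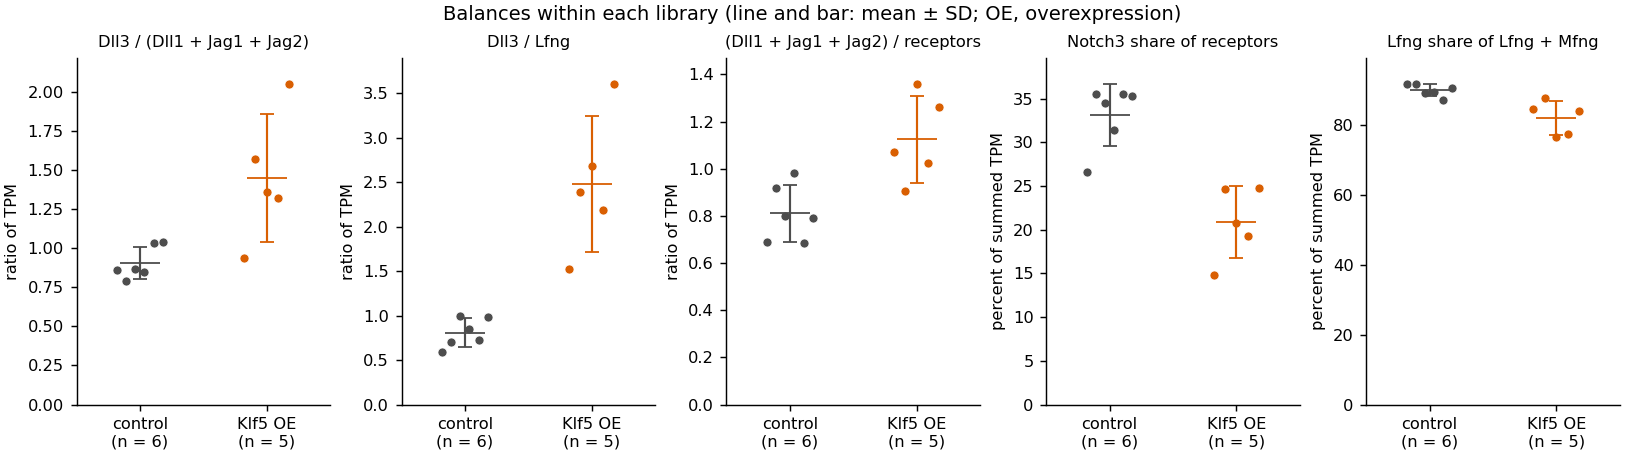
Ratios of TPM (3 panels on the left) and shares of summed TPM in percent (2 panels on the right) in 6 control libraries (grey) and 5 overexpression libraries (orange), with mean and SD, on axes from 0. Dll3 over Lfng and the Notch3 share of receptors do not overlap between groups, whereas 1 overexpression library falls in the control range for Dll3 over activating ligands, for activating ligands over receptors and for the Lfng share.

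The order of the 10 levels changed at the top. Lfng was the most abundant of the 10 genes in 6 of 6 control libraries, although in control library 3 it was level with Dll3 (76.2 and 75.9 TPM). Dll3 was the most abundant in 5 of 5 overexpression libraries, where Lfng had rank 3 or 4. Dll3 over Lfng sets a gene called higher against a gene called lower, so a difference between groups was built into this ratio. It was 0.587, 0.698, 0.997, 0.852, 0.727 and 0.985 in control libraries 1 to 6 and 1.53, 2.39, 2.68, 2.19 and 3.60 in overexpression libraries 1 to 5. Dll3 did not have rank 2 in every control: Notch1 was above it in control library 1 and Dll1 in control library 4. By mean, Dll1, Notch1 and Nrarp came next in the controls, at 62.5, 56.9 and 50.5 TPM. Neighbouring means differ by less than their SD, and the genes exchanged places between libraries. In the overexpression group the same held for Dll1, Notch1 and Lfng, with means of 64.7, 60.7 and 54.8 TPM. Notch3 had rank 6 in every control, above Jag1, and in every overexpression library Jag1 was above Notch3. Mfng ranked 7 to 9 and Notch2 8 or 9, and Jag2 was last in all 11 libraries.

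Promoter sequence was read for 9 of the 10 genes from RefSeq (GRCm38.p6), as windows of 300 bases from 250 before to 50 after each annotated start, 10 windows in all because Dll1 has a pair of starts. Windows were searched on both strands for 3 short motifs: the GC box GGGCGG and the CACCC box CCACCC, letters that Kruppel-like factors are known to bind, and the Rbpj core TGGGAA. The stretches below belong to Notch3 and Lfng, the 2 genes that fell, and to Dll3, which took the place of Lfng at the top of the order. They run 5′ to 3′ on the gene's strand, with capitals marking every match to any of the 3 motifs.
Notch3, chr17:32166891-32167140, minus strand: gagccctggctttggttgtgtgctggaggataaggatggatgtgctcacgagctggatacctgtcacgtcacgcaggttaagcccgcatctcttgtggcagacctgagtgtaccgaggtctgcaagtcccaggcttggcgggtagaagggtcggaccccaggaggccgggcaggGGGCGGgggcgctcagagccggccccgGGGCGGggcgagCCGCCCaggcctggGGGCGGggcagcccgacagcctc
Lfng, chr5:140607091-140607319, plus strand: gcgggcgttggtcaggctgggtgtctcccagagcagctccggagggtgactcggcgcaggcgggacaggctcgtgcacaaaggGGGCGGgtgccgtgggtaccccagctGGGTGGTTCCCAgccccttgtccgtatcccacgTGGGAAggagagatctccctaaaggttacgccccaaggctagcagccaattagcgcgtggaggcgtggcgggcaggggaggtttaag
Dll3, chr7:28301815-28301844, minus strand: actggcctgaagGGGCGGagcgtcccctca

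The Notch3 window holds 4 GC boxes, all within 76 bases before the start, and neither of the other motifs. Lfng is the only 1 of the 10 windows with the Rbpj core, which it holds 2 times, and 1 of these directly follows a CACCC box. The Dll3 window has 1 GC box, 47 bases before the RefSeq start. Only 30 bases of it are shown, because a GENCODE exon of Dll3 covers the RefSeq window. The Jag1 window has none of the 3 motifs. Matches are letters only: 7 of the 10 windows held a GC box, which 35.7% of all 32851 RefSeq windows hold, 4 held a CACCC box (31.5%) and 1 the Rbpj core (25.6%). Dll3, which rose, and Notch3 and Lfng, which fell, each have a GC box. Of the 4 called genes, only Lfng has a CACCC box or the Rbpj core in its window. The part of these motifs in the changes was not tested.

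The wider pathway was taken from a list of 65 other genes, also chosen with earlier results known. Of these, 57 could be tested, and 1 rose and 3 fell, beside 2.29% of all tested genes called higher and 1.43% called lower. Their median log2 fold change was 0.01. None of 9 testable proteases and gamma-secretase parts passed, nor did any of 20 nuclear partners, 5 glycosyltransferases or 4 ligand-handling genes. The calls came from 3 other family members (1 lower), 11 trafficking and turnover genes (1 lower) and 5 genes listed as targets (1 higher, 1 lower). Hes6, read above as a progenitor marker, is among these 5 and did not pass. The most abundant member of each list without a call had log2 fold changes of 0.15 (Psenen, a gamma-secretase subunit), 0.09 (the histone deacetylase Hdac2), -0.13 (Poglut1, which adds glucose to Notch) and 0.04 (Mib1, the ubiquitin ligase that makes ligands active). Their limma adjusted p were 0.736 to 0.973.

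Dll4, a Delta ligand best known from endothelial cells, fell. It read 6.99, 4.36, 2.49, 1.85, 2.92 and 4.57 TPM in control libraries 1 to 6 and 1.85, 0.611, 1.26, 1.25 and 0.718 TPM in overexpression libraries 1 to 5. The highest overexpression library only just lies below the lowest control. The means were 3.86 ± 1.86 TPM (SD, n = 6) and 1.14 ± 0.497 TPM (SD, n = 5), and the log2 fold change was -1.13 ± 0.27 (SE, limma adjusted p = 0.0280). Leaving out 1 library ended the Dll4 call in 6 of 11 cases: control library 1, 2 or 6, or overexpression library 2, 4 or 5, with adjusted p up to 0.0850. It was also lost in 3 of 10 other fits. Dner, a non-classical Notch ligand of neurons and the most abundant gene of that family list, had means of 102 and 76.8 TPM and did not pass (adjusted p = 0.185).

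Dtx4, a Deltex ubiquitin ligase that acts on Notch, fell. Its means were 20.6 ± 3.44 TPM (SD, n = 6) and 10.9 ± 3.07 TPM (SD, n = 5), with every overexpression library below every control. Its log2 fold change was -0.88 ± 0.18 (SE, limma adjusted p = 0.00926), and the call held in all 22 alternative fits. Nedd4, the most abundant gene of the same turnover list, had means of 327 and 386 TPM (adjusted p = 0.574).

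The targets did not move as a group. Hes1 read 30.7 to 48.9 TPM in controls and 46.6 to 66.3 TPM with overexpression, with 4 of 5 overexpression libraries above every control, and rose (log2 fold change 0.61 ± 0.14 SE, limma adjusted p = 0.0170, lost without overexpression library 2 at 0.0550). Hey1 had means of 20.6 ± 4.06 TPM (SD, n = 6) and 11.8 ± 3.48 TPM (SD, n = 5) without overlap and fell (log2 fold change -0.78 ± 0.19 SE, adjusted p = 0.0305). The Hey1 call did not hold without control library 3, 4 or 6 or overexpression library 2, 4 or 5, with adjusted p up to 0.0797, nor with no minimum level (0.102) or in the 10 libraries numbered 1 to 5, with a replicate block (0.0593) or without it (0.0555). Hes5, named after its values were seen, had means of 125 and 69.01 TPM and did not pass (adjusted p = 0.0623), and neither did Fabp7, a radial glia gene that Notch activates (3596 and 2105 TPM, adjusted p = 0.0690). Hes5 was called lower without control library 2 (adjusted p = 0.0277) or overexpression library 3 (0.0177), and in none of the 20 other fits. Fabp7 was called lower without control library 3 (0.0469) and with a minimum level of 5 TPM (0.0483).

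Notch3 and Dll4 are also genes of blood vessel walls, so vessel markers were read beside them. The 13 mural and mesenchymal markers summed to 2.98 to 14.3 TPM in controls and 5.03 to 8.86 TPM with overexpression. Kcnj8, Lum and Dcn were at 0 in every library, and the defining pericyte genes Pdgfrb and Rgs5 did not exceed 0.394 and 0.222 TPM. Of the 3 mural markers that could be tested, Myl9, a smooth muscle myosin light chain, fell from 2.90 to 0.554 TPM (limma adjusted p = 0.0454). Acta2 had means of 2.59 TPM in controls and 1.40 TPM with overexpression (adjusted p = 0.678). Tagln had means of 2.00 and 2.23 TPM (adjusted p = 0.973), and neither passed. Des, below the level required for testing, read 0 to 0.695 TPM in controls and 0.798 to 1.89 TPM with overexpression. The part of these markers in the Notch3 result was not tested. The 9 endothelial markers summed to 0.997 to 2.81 TPM in controls and 0.936 to 2.42 TPM with overexpression, and Cdh5, a defining gene of endothelium, did not exceed 0.135 TPM.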

How the data were processed

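RNA was sequenced from 6 control and 5 Klf5 overexpression libraries, each taken as 1 embryo per the labels' protocols. The authors deposited 1 table of TPM values, with 1 column per library. Per the submitters' processing notes, HISAT2, StringTie, HTSeq and DESeq2 and the build GRCm38.p5 were used. Tool versions and roles, the annotation, the strand setting and which library was made with which of the 2 library kits in the labels' protocols were not given in the sources used here. Reads of overlapping genes could therefore be mixed, also for Notch1, Notch2, Notch3, Dll1, Jag2 and Nrarp. Depth is unknown because TPM keeps no counts, and precision comes from the spread between libraries.

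Of 53453 rows, 53255 were matched to symbols by identifier. The 13549 genes that reached 1 TPM in 5 or more libraries were tested as log2(TPM + 1) with limma 3.58.1 (R 4.3.3), with a variance trend, two-sided, Benjamini-Hochberg adjusted over all genes at 0.05, after a check on simulated data. Exact permutation tests, levels and balances used Python 3.11.15. Gene coordinates come from GENCODE M21 on GRCm38. Named genes were the 10 Notch genes, Klf5, every listed pathway gene past the threshold and the most abundant gene of each pathway list. The members and lists were chosen with earlier results of these data known. The alternatives were another pseudocount (0.1), no filter, a filter of 5 TPM, 4 other scalings, no variance trend, array weights, a replicate block, 10 libraries, and leaving out each of the 11 libraries. Equal replicate numbers did not pair the libraries. A marker and a motif set out at the start are not reported here.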

Additional observations from a re-analysis of the deposited data

Results flagged for a closer look

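Hey1 in control library 4 stood apart from the other 5 controls, at 28.8 TPM against 18.3 to 19.7 TPM. The gap was 0.870 of the range of the control group. It was the only such value among 80 groups of libraries examined for the named genes and balances, and chance alone flags about 1 in 20 groups.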

How the results depend on the processing

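Across 22 alternative fits, the 4 changed Notch genes kept their direction in all 88 estimates and their call in 81. The number of Notch genes called was 4, and 2 (1 higher, 1 lower) without a filter on low values, where 28101 genes were tested. With 1 library left out, it was 3 to 4, with 1 to 2 higher and 1 to 2 lower. The 6 others were not called in any of 131 estimates, of which 7 changed sign: leaving out 1 library gave -0.13 to 0.22 for Notch1 and -0.16 to 0.14 for Dll1. Jag2 and Dll4 had no estimate with the 5 TPM filter. Mib1, near 0, was at -0.0013 with array weights and -0.024 to 0.095 with 1 library left out.

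Over all genes, 194 were lower, and 95 without a filter, 301 with trimmed-mean scaling, 311 with quantile normalization and 129 with the 10 libraries numbered 1 to 5. With 1 library left out, 206 to 313 were higher and 117 to 212 lower. Where the cause is not in the number of genes or libraries used, the cause was not tested. With geometric means, the log2 difference was 0.25 for Dll3 over activating ligands and 1.00 for activating ligands over receptors. The replicate block called 426 genes (288 higher, 138 lower), beside 406 in the same 10 libraries without it, and the same number of Notch genes, 4. Equal numbers correlated at -0.040 to 0.304, and only number 1 correlated best with its own number. In those 10 libraries Dll4 and Hey1 were not called with the block (adjusted p = 0.0573 and 0.0593) or without it (0.0658 and 0.0555). Depth is unknown.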
